A study of Mus musculus with 8 samples.

Results

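Interferon-inducible GTPases, AIM2-like Ifi2xx genes and antiviral genes were followed in cultured lung ILC2s (group 2 innate lymphoid cells), a tissue-resident lineage that lacks antigen receptors and secretes type 2 cytokines. Members were taken by gene symbol among protein-coding genes, from a list drawn up with earlier results of these data known. They were the guanylate-binding proteins (Gbp), the immunity-related GTPases (Igtp, Irgm1, Irgm2, Iigp1 and Ifi47), Mx1, the Ifi2xx genes, and the Ifit, Ifitm, Oas, Isg and other named antiviral genes. This gave 62 of the 22075 genes in the deposited table, namely 16 GTPases, 9 AIM2-like genes and 37 antiviral effectors, the last including the peptide transporter genes Tap1 and Tap2.

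Interferons act through receptors that switch on Janus kinases and transcription factors of the STAT family. The response to interferon gamma runs through the gamma-activated sequence (GAS), and a complex that contains IRF9 binds the interferon-stimulated response element (ISRE). The genes they switch on include GTPases that attack vacuoles holding pathogens, sensors of foreign nucleic acid, and effectors that block virus entry, translation or release. Many are also transcribed at a basal level in lymphocytes.

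Lungs of papain-exposed C57BL/6 mice were the source of the cells. WT cells were Stat3 fl/fl, and STAT3-KO cells were Vavicre Stat3 fl/fl, in which the Cre recombinase is driven by the Vav promoter active in blood cells. A genotype difference therefore cannot be told apart from the presence of the Cre transgene. Every culture was expanded with IL-2 at 10 ng/ml for some 5 days, and the IL-33 groups then received 10 ng/ml IL-33, an alarmin that activates ILC2s, for 2 days. The 4 groups (WT control, STAT3-KO control, WT IL-33 and STAT3-KO IL-33) held 2 libraries each. The labels give neither the age of the mice nor the medium of the controls in the last 2 days. They do not say whether the 2 libraries of a group came from separate mice or cultures, so the p-values measure the spread between these libraries, which may be technical.

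Each value is FPKM (a fragment count per kilobase of exon, normalised to sequencing depth), and depth ranged from 15843685 to 19905817 reads per library. A gene with 1 kb of exons and 3 reads would be given 0.151 to 0.189 FPKM, a floor for counting error alone. Stat3, the targeted gene, was at 41.7 and 50.7 FPKM in WT control, 15.3 and 16 in STAT3-KO control, 49 and 55.3 in WT IL-33 and 8.03 and 9.69 in STAT3-KO IL-33. Of 11 ILC2 markers, 11 were listed, and they summed to 3684 to 3794 FPKM in WT control, 3580.3 to 3610.02 in STAT3-KO control, 9777 to 10602 in WT IL-33 and 3165 to 3437 in STAT3-KO IL-33. The ILC2 sums hide opposite moves. In STAT3-KO, Gata3, Il7r, Il1rl1, Rora, Icos, Klrg1, Thy1 and Id2 were lower with IL-33, and Il2ra, Il13 and Il5 were higher. Gata3 was at 514 and 516 FPKM in STAT3-KO control and 175 and 171 in STAT3-KO IL-33. Il7r went from 544 and 581 to 69.6 and 78.4 in the same groups. In WT, Gata3 went from 464 and 454 FPKM to 278 and 292 with IL-33, and Il5 from 38.5 and 36 to 3602 and 3398. Thy1 was at 2.56 and 2.37 in STAT3-KO IL-33 and at 19.6 or more elsewhere. Of 6 B cell markers 3 were listed, with summed levels of 7.92 to 8.15 FPKM in WT control, 3.27 to 4.13 in STAT3-KO control, 13.1 to 13.9 in WT IL-33 and 19.6 to 21.9 in STAT3-KO IL-33, nearly all from Cd79b. Of 8 dendritic cell markers 6 were listed, summing to 3.19 to 3.50 FPKM, 2.34 to 3.54, 10.5 to 11.7 and 18.2 to 20.4 in the same order, with Batf3 at 4.28 and 5.16 in WT IL-33, 15.6 and 12.7 in STAT3-KO IL-33 and no more than 0.447 in controls, and Itgax at no more than 0.188 in any library. The macrophage list had 6 of 13 genes listed, and its sum (504 to 552 FPKM, 435 to 438, 306 to 351 and 91.7 to 108) was nearly all Ccr2. Of 6 NK cell and ILC1 markers 5 were listed, summing to 8.78 to 10.5 FPKM, 26.7 to 29.3, 2.51 to 2.61 and 4.44 to 4.98, with Tbx21 leading in STAT3-KO control. The part of these markers in the results was not tested. In bulk RNA, fewer cells of a type and less RNA per cell cannot be told apart.

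Promoter sequences show which members carry letters like the binding sites of these factors. RefSeq starts (GRCm38.p6) were available for 46 of the 62 members, and the 250 bases before each start were searched on both strands. The ISRE-like pattern (GAAA, any 2 bases, GAAA) was found in 8 of 9 GTPase genes (88.9%), 7 of 8 AIM2-like genes (87.5%) and 11 of 29 antiviral effectors (37.9%), against 936 of 27025 genes (3.5%) in the whole promoter table. It was found in 1 of 7 Ifitm genes. The GAS-like pattern (TTC, any 3 bases, GAA; palindromic, so counted once per place) was found in 4 of 9 GTPase genes (44.4%), 0 of 8 AIM2-like genes and 5 of 29 antiviral effectors (17.2%), against 2197 of 27025 genes (8.1%). A match is a string of letters and was not shown to be bound here.

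Stretches of 70 bases are given for 6 members as examples, with both kinds of pattern in capitals. Gbp7 is shown as a GBP gene that holds both patterns, Igtp and Irgm2 as neighbours with near copies of a stretch, and Ifi203, Ifi206 and Ifi208 as AIM2-like genes of 1 cluster. They lie at chr3:142530236-142530305 (plus strand, Gbp7), chr11:58199486-58199555 (plus, Igtp), chr11:58214877-58214946 (plus, Irgm2), chr1:173942493-173942562 (minus, Ifi203), chr1:173491319-173491388 (minus, Ifi206) and chr1:173673577-173673646 (plus, Ifi208). None touches an annotated exon. The Irgm2 and Ifi203 stretches lie in introns of longer transcripts of the same genes, and the other 4 lie outside annotated genes.
Gbp7: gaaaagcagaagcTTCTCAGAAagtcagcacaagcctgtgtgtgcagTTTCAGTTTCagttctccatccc
Igtp: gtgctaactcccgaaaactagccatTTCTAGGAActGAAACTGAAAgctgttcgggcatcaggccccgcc
Irgm2: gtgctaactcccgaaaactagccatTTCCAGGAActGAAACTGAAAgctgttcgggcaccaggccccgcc
Ifi203: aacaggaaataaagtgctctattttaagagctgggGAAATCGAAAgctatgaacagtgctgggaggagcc
Ifi206: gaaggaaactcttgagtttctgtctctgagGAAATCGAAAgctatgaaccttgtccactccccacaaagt
Ifi208: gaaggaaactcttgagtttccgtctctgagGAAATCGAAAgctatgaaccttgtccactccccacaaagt
The first capitals in Gbp7, Igtp and Irgm2 are GAS-like and the second are ISRE-like, and the single capitals of the 3 AIM2-like genes are ISRE-like. Igtp and Irgm2 differ at 2 of the 70 bases, and Ifi206 and Ifi208 at 1 of the 70.

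Of the 62 members, 45 passed the filter for testing (at least 1 FPKM in at least 2 libraries), namely 15 GTPases, 6 AIM2-like genes and 24 antiviral effectors. The 17 others lay between 0 and 2.09 FPKM. Of the 45, 4 reached 1 FPKM in a single group only (Ifi213, Mx1, Ifit1 and Ifitm6), so that they had to differ to be tested. The counts and medians by class below leave these 4 out, except where all tested members are named. They cover 14 GTPases, 5 AIM2-like genes and 22 effectors. Among these, Ifi206 and Ifi208 reached 1 FPKM in the control groups only, and Ifi211 and Ifitm1 in the IL-33 groups only. For the IL-33 comparisons these genes passed the filter only through the side where they are high, and they stay in the counts. Changes are differences of log2(FPKM + 1) ± the standard error (SE) of limma, which understate the changes of low genes, and a change is called at an adjusted p under 0.05.

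With IL-33, most GTPases and AIM2-like genes fell in WT, whereas in STAT3-KO more GTPases rose than fell. The rises in STAT3-KO were mainly of GBP genes (6 of 9 tested), while 3 of the 5 immunity-related GTPases fell there. In WT cells 12 of 14 GTPases fell and 1 rose, 4 of 5 AIM2-like genes fell and 0 rose, and 3 of 22 antiviral effectors rose and 4 fell. Over all 11877 tested genes 36.1% were called in WT, 14.5% higher and 21.6% lower, so that the effectors were called no more often than genes at large. In STAT3-KO cells 7 of 14 GTPases rose and 5 fell, 4 of 5 AIM2-like genes fell and 0 rose, and 9 of 22 effectors rose and 6 fell, against 51.0% of all genes called, 20.4% higher and 30.6% lower. In both genotypes the AIM2-like falls include Ifi206 and Ifi208, and the effector rises include Ifitm1. Through the filter these genes could be called in that direction only. The median change of the GTPases was -1.32 in WT and 0.54 in STAT3-KO, that of the AIM2-like genes -2.15 and -1.66, and that of the effectors -0.24 and 0.26, beside -0.14 and -0.18 over all genes. Rescaling each library by the median of ratios brought the last 2 medians to -0.001 and -0.009. All 45 tested members then gave 6 rises and 19 falls in WT, where they gave 5 and 21 before. In STAT3-KO they gave 22 rises and 12 falls, against 18 and 15 before. These counts include the 4 members set aside above. Without those 4, the counts before rescaling were 4 rises and 20 falls in WT and 16 and 15 in STAT3-KO.

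Set against each other, 12 of 14 GTPases were higher in STAT3-KO IL-33 than in WT IL-33 and 0 were lower, whereas 6 effectors were higher and 8 lower, at a background of 32.6% of all genes called, 16.3% higher and 16.4% lower. For the AIM2-like genes limma called 0 of all 6 tested in this comparison, with 1 at an unadjusted p under 0.05. The difference between the 2 IL-33 responses (STAT3-KO minus WT, the interaction) was called for 10 GTPases, all positive, and for 11 effectors, 7 positive and 4 negative. It was called for 0 of the 6 AIM2-like genes, also at an unadjusted p under 0.05, and for 15.1% of all genes (6.72% positive and 8.43% negative). The median difference was 1.48 for the GTPases, 0.26 for the AIM2-like genes and -0.02 for both the effectors and all genes.

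**Figure D1:**
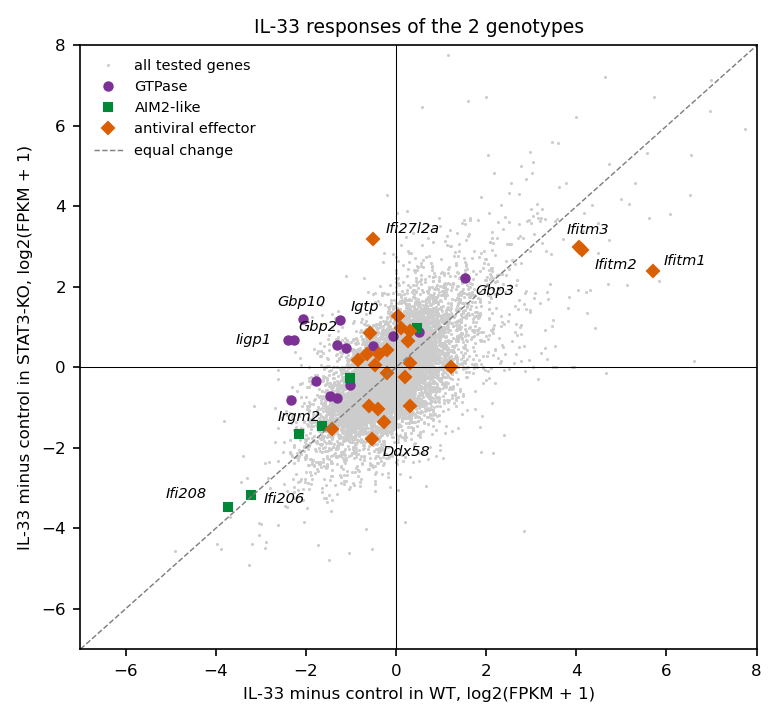
Change with IL-33 in WT (x axis) against change with IL-33 in STAT3-KO (y axis), both as differences of log2(FPKM + 1), for all 11877 tested genes in grey and the 45 tested members in colour. The dashed line marks equal change. Gbp2 (-2.39 and 0.69) lies well above it, Ifitm1 (5.70 and 2.39) below it, and Ifi206 (-3.21 and -3.17) on it. The IL-33 values of Ifi206 lie below the pseudocount of 1.

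Among the GBP genes of chromosome 3, Gbp2 showed the widest swing. GBP proteins coat pathogen vacuoles and cytosolic bacteria and open them to inflammasome sensing. Gbp2 (ENSMUSG00000028270, GRCm38 chromosome 3, 142620602 to 142638008) was at 86.1 and 82.7 FPKM in WT control, 46.6 and 52 in STAT3-KO control, 16.1 and 14.5 in WT IL-33 and 71.5 and 89.7 in STAT3-KO IL-33. It was thus lowest in both WT IL-33 libraries, while the STAT3-KO IL-33 libraries reached the range of WT control. With IL-33 it changed by -2.39 ± 0.13 (adjusted p = 9.23e-06) in WT, 5.53-fold down in mean FPKM. In STAT3-KO it changed by 0.69 ± 0.13 (adjusted p = 0.00322), and the responses differed by 3.08 ± 0.19 (adjusted p = 9.37e-05).

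Gbp7, the nearest expressed neighbour with a printed promoter, was at 38.6 and 36.4 FPKM in WT control, 36.8 and 35.8 in STAT3-KO control, 11.8 and 14.4 in WT IL-33 and 19.8 and 24.2 in STAT3-KO IL-33. The control libraries of both genotypes lay together, all IL-33 libraries lay below them, and WT IL-33 lay lowest. Its fall was -1.46 ± 0.14 (adjusted p = 0.000151) in WT and -0.70 ± 0.14 (adjusted p = 0.00392) in STAT3-KO, and the responses differed by 0.75 ± 0.20 (adjusted p = 0.0396).

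Gbp3 went the other way in both genotypes. It was at 3.23 and 5.43 FPKM in WT control, 4.81 and 4.33 in STAT3-KO control, 13.6 and 14.6 in WT IL-33 and 20.2 and 30.3 in STAT3-KO IL-33, with no overlap between control and IL-33. Gbp3 rose by 1.53 ± 0.24 (adjusted p = 0.00186) in WT and 2.21 ± 0.24 (adjusted p = 0.000167) in STAT3-KO, and was the only GTPase called higher in WT. The difference of its responses, 0.68 ± 0.34, did not pass (adjusted p = 0.209). Gbp5 stayed low, from 0.494 to 1.38 FPKM in all libraries other than STAT3-KO IL-33, where it was at 2.63 and 2.76. Its rise there was 0.78 ± 0.24 (adjusted p = 0.0258). Gbp2b was listed at 0 in 7 libraries and at 0.857 FPKM in STAT3-KO IL-33 2, where the value corresponds to 43 reads, and was not tested.

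The GBP genes of chromosome 5 lie in a tandem cluster between 105014150 and 105293698 on the minus strand. Summed over Gbp4, Gbp6, Gbp8, Gbp9 and Gbp10 they came to 105 and 137 FPKM in WT control, 91.1 and 88.8 in STAT3-KO control, 65.5 and 62.8 in WT IL-33, and 115 and 138 in STAT3-KO IL-33. The sum was lowest in WT IL-33, and the STAT3-KO IL-33 libraries overlapped WT control. Gbp4, the most abundant, was at 53.2 and 71.8 FPKM in WT control, 45.3 and 46.4 in STAT3-KO control, 43.4 and 43.3 in WT IL-33 and 62.7 and 70.1 in STAT3-KO IL-33. Its change was -0.50 ± 0.14 (adjusted p = 0.0265) in WT and 0.52 ± 0.14 (adjusted p = 0.0165) in STAT3-KO, with a difference of 1.02 ± 0.20 (adjusted p = 0.014).

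Gbp8 was at 31.5 and 37.7 FPKM in WT control, 28.3 and 25.7 in STAT3-KO control, 13.9 and 12.6 in WT IL-33 and 35.5 and 45.1 in STAT3-KO IL-33. No WT IL-33 value reached any of the other 6 libraries. It fell by 1.32 in WT (SE 0.15, adjusted p = 0.000387) and rose by 0.55 ± 0.15 (adjusted p = 0.0167) in STAT3-KO, and the responses differed by 1.87 ± 0.22 (adjusted p = 0.00172). Gbp6 was at 8.83 and 10.9 FPKM in WT control, 6.12 and 5.32 in STAT3-KO control, 4.38 and 3.71 in WT IL-33 and 7.19 and 9.63 in STAT3-KO IL-33. It fell in WT (-1.10 ± 0.19 (adjusted p = 0.00297)), its change in STAT3-KO was 0.48 ± 0.19 (adjusted p = 0.0659), and the difference was 1.58 ± 0.27 (adjusted p = 0.00798).

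Gbp10 had the largest difference of responses among the GTPases, 3.29 ± 0.32 (adjusted p = 0.000911). It was at 4.02 and 3.76 FPKM in WT control, 3.16 and 1.8 in STAT3-KO control, 0.182 and 0.143 in WT IL-33 and 6.27 and 7.63 in STAT3-KO IL-33, and the WT IL-33 values correspond to 14 and 9 reads. STAT3-KO IL-33 exceeded every control. Gbp10 changed by -2.07 ± 0.23 (adjusted p = 0.000293) in WT and by 1.21 ± 0.23 (adjusted p = 0.00288) in STAT3-KO. Gbp9 differed from its neighbours in falling in both genotypes, by -1.31 ± 0.26 in WT and -0.77 ± 0.26 in STAT3-KO as log2 changes (adjusted p = 0.00511 and 0.0346). It was at 7.65 and 12.4 FPKM in WT control, 8.15 and 9.59 in STAT3-KO control, 3.67 and 3.04 in WT IL-33 and 3.83 and 5.94 in STAT3-KO IL-33. Gbp10 and Gbp6 share 46.3% and 29.0% of their exon bases with the gene model Gm43302, and Gbp4, Gbp8 and Gbp9 share 60 to 61 exon bases, so their values are uncertain to the extent that reads were split among them.

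**Figure D2:**
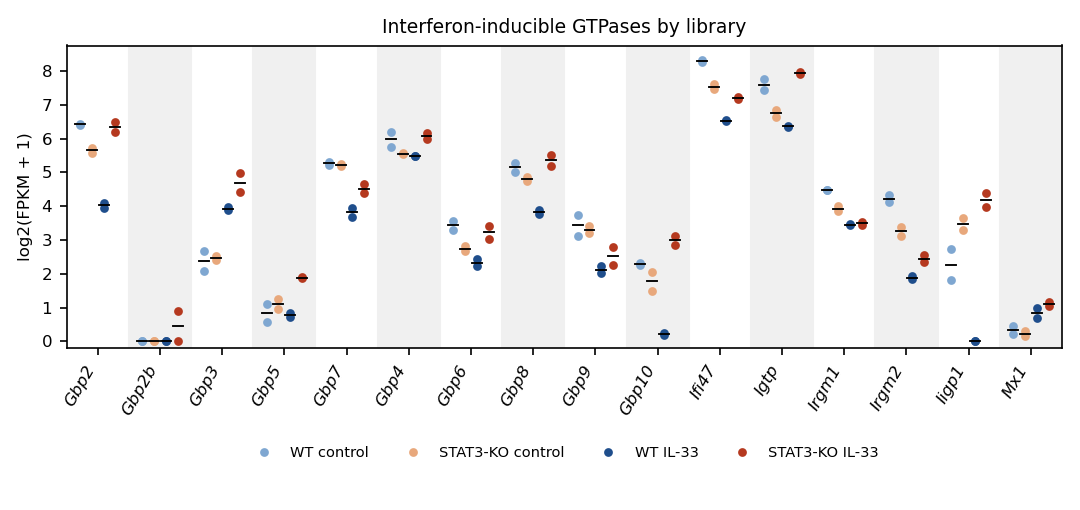
Level of each of the 16 GTPase genes as log2(FPKM + 1) (y axis) by gene (x axis), with 1 point per library in 4 group colours and a bar at each group mean of 2 libraries. In Gbp2, Gbp8, Gbp10, Igtp and Iigp1 the WT IL-33 points lie lowest and the STAT3-KO IL-33 points are back at or above control levels, while Gbp3 rises in both genotypes.

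The 5 immunity-related GTPases were summed. They came to 565 and 539 FPKM in WT control, 307 and 342 in STAT3-KO control, 183 and 188 in WT IL-33, and 420 and 424 in STAT3-KO IL-33. The groups did not overlap, and WT control was highest and WT IL-33 lowest. In STAT3-KO 1 of the 5 was called higher with IL-33 and 3 lower (median change -0.34), against 20.4% and 30.6% of all genes. The higher sum with IL-33 in STAT3-KO came mainly from Igtp. Igtp, Irgm1 and Irgm2 encode the regulatory members that hold the effector GTPases inactive on the cell's own membranes, and Iigp1 and Ifi47 encode effector members.

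Igtp (ENSMUSG00000078853, chromosome 11, 58199556 to 58207591) was at 214 and 173 FPKM in WT control, 99.1 and 114 in STAT3-KO control, 79.7 and 82.3 in WT IL-33 and 248 and 239 in STAT3-KO IL-33. WT control and STAT3-KO IL-33 were high, and WT IL-33 lay below all other libraries. It changed with IL-33 by -1.24 ± 0.12 (adjusted p = 0.000161) in WT and by 1.19 ± 0.12 (adjusted p = 0.000118) in STAT3-KO, a difference of 2.43 ± 0.17 (adjusted p = 0.000247). Its mean level with IL-33 was 3.01 times as high in STAT3-KO as in WT.

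Ifi47 was the most abundant GTPase in WT control. It was at 307 and 322 FPKM in WT control, 175 and 195 in STAT3-KO control, 90.2 and 93 in WT IL-33 and 143 and 149.7 in STAT3-KO IL-33, in 4 groups that did not overlap. Ifi47 fell in WT (-1.77 ± 0.09 (adjusted p = 6.43e-06)) and less in STAT3-KO (-0.34 ± 0.09 (adjusted p = 0.0166)), with a difference of responses of 1.43 ± 0.13 (adjusted p = 0.000732). After rescaling, the change in STAT3-KO was -0.12 and was not called.

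Iigp1 was listed at 0 in both WT IL-33 libraries, while other GTPases of the same cells were well detected. It was at 5.65 and 2.51 FPKM in WT control, 8.88 and 11.7 in STAT3-KO control and 14.7 and 19.8 in STAT3-KO IL-33. The fitted difference of its responses, 2.96 ± 0.43 (adjusted p = 0.00413), depends on the pseudocount because of the zeros. In STAT3-KO the change with IL-33 was 0.69 ± 0.30 (adjusted p = 0.0865).

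Irgm2 was at 16.3 and 19.1 FPKM in WT control, 9.41 and 7.72 in STAT3-KO control, 2.79 and 2.56 in WT IL-33 and 4.06 and 4.83 in STAT3-KO IL-33. Its IL-33 libraries lay below its controls in both genotypes. Irgm2 fell by -2.34 ± 0.17 in WT and -0.81 ± 0.17 in STAT3-KO as log2 changes (adjusted p = 3.24e-05 and 0.00478), with a difference of 1.53 ± 0.24 (adjusted p = 0.00581). Its promoter stretch is the near copy of that of Igtp, with which it also shares 162 exon bases (4.4% of its own and 8.0% of those of Igtp). The level of Irgm1 was 21.3 and 21.4 FPKM in WT control, 14.9 and 13.5 in STAT3-KO control, 10.1 and 9.76 in WT IL-33 and 9.89 and 10.6 in STAT3-KO IL-33. It fell in WT (-1.03 ± 0.13 (adjusted p = 0.000511)) and in STAT3-KO (-0.44 ± 0.13 (adjusted p = 0.0199)) to the same range, and the difference of responses, 0.60 ± 0.18, was not called (adjusted p = 0.0567). The IL-33 libraries of Irgm1 overlapped between genotypes.

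Mx1, a dynamin-like GTPase, stayed between 0.120 and 0.977 FPKM in 6 libraries and was at 1.23 and 1.08 in STAT3-KO IL-33. It passed the filter only through that group, so its higher level there is given without a test.

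Some GTPase calls were lost when a single library was left out. All groups share 1 estimate of the spread. A call could thus also be lost without a library outside the comparison, with the change itself unaltered. For IL-33 in WT the call was lost for Gbp4 without WT control 2 (-0.29), WT IL-33 1 (-0.50), WT IL-33 2 (-0.50). For IL-33 in STAT3-KO it was lost for Gbp4 without STAT3-KO control 1 (0.50), STAT3-KO control 2 (0.54), STAT3-KO IL-33 2 (0.44); for Gbp5 without STAT3-KO control 1 (0.64), STAT3-KO IL-33 1 (0.80), STAT3-KO IL-33 2 (0.75); for Gbp8 without STAT3-KO control 2 (0.48), STAT3-KO IL-33 2 (0.38); and for Gbp9 without STAT3-KO control 1 (-0.87), STAT3-KO control 2 (-0.66), WT IL-33 1 (-0.77), STAT3-KO IL-33 1 (-0.50). It was also lost for Ifi47 without STAT3-KO control 2 (-0.26), STAT3-KO IL-33 1 (-0.30), and for Irgm1 without STAT3-KO control 1 (-0.37), STAT3-KO control 2 (-0.50), STAT3-KO IL-33 1 (-0.39). Between genotypes with IL-33 it was lost for Gbp3 without STAT3-KO control 1 (0.77), STAT3-KO control 2 (0.77), WT IL-33 1 (0.73), WT IL-33 2 (0.82), STAT3-KO IL-33 2 (0.49). It was lost as well for Gbp4 without WT IL-33 1 (0.60), WT IL-33 2 (0.60), STAT3-KO IL-33 2 (0.52), for Gbp5 without WT IL-33 2 (1.06), for Gbp6 without WT IL-33 2 (0.79), STAT3-KO IL-33 2 (0.70), and for Irgm2 without WT IL-33 1 (0.61), WT IL-33 2 (0.52), STAT3-KO IL-33 1 (0.67), STAT3-KO IL-33 2 (0.46). The difference of responses was lost for Gbp4 without WT IL-33 1 (1.02), WT IL-33 2 (1.02), and for Gbp7 without WT control 1 (0.71), WT control 2 (0.79), STAT3-KO control 1 (0.77), STAT3-KO control 2 (0.73), WT IL-33 1 (0.62), WT IL-33 2 (0.89), STAT3-KO IL-33 2 (0.62). Values in parentheses are the log2 changes without that library, and the differences of responses of Gbp2, Gbp6, Gbp8, Gbp10, Igtp, Ifi47, Iigp1 and Irgm2 were called without any single library and under every other alternative tried.

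Ifi203, Ifi206, Ifi208 and Ifi209, the 4 most abundant of the 9 AIM2-like genes, fell with IL-33 in both genotypes, and the test called no difference between the genotypes in their responses. AIM2-like genes encode proteins with a DNA-binding HIN domain, several of them with a pyrin domain, and lie in a cluster on chromosome 1 between 173468485 and 174031810. Summed, the 9 genes came to 68.3 and 75.8 FPKM in WT control, 55.1 and 62.6 in STAT3-KO control, 14.0 and 9.70 in WT IL-33, and 13.8 and 12.5 in STAT3-KO IL-33. Both genotypes overlapped with IL-33, and neither IL-33 group came near its controls.

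Ifi206 (ENSMUSG00000037849, chromosome 1, 173468485 to 173491041) was at 13.6 and 13 FPKM in WT control, 8.92 and 8.84 in STAT3-KO control, 0.691 and 0.402 in WT IL-33 and 0.12 and 0.0737 in STAT3-KO IL-33. The level with IL-33 was below 1 FPKM, the pseudocount, in all 4 libraries, so the size of its changes depends on the pseudocount. The 2 genotypes did not overlap with IL-33, at 42 and 20 reads in WT and 6 and 4 in STAT3-KO. The changes were -3.21 ± 0.18 in WT and -3.17 ± 0.18 in STAT3-KO. They are given without a test, because Ifi206 passed the filter only through the control groups. Their difference was 0.04 ± 0.26 (adjusted p = 0.927). Ifi208, whose promoter stretch is almost the same, was at 15.2 and 17.1 FPKM in WT control, 9.87 and 14.7 in STAT3-KO control, 0.688 and 0 in WT IL-33 and 0.408 and 0 in STAT3-KO IL-33. It was listed at 0 in 1 library of each IL-33 group. It changed by -3.72 ± 0.30 in WT and by -3.46 ± 0.30 in STAT3-KO, given without a test for the same reason as Ifi206.

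Ifi209 was the most abundant AIM2-like gene and kept a measurable level with IL-33. It was at 23.1 and 27.8 FPKM in WT control, 22.8 and 25.4 in STAT3-KO control, 7.73 and 7.12 in WT IL-33 and 8.04 and 8.25 in STAT3-KO IL-33. The change was -1.65 ± 0.14 (adjusted p = 7.55e-05) in WT and -1.46 ± 0.14 (adjusted p = 9e-05) in STAT3-KO, with a difference of 0.19 ± 0.20 (adjusted p = 0.554). Ifi203 was at 15.3 and 16.4 FPKM in WT control, 12.9 and 13.4 in STAT3-KO control, 3.52 and 2.18 in WT IL-33 and 3.88 and 3.09 in STAT3-KO IL-33. Its IL-33 values overlapped between genotypes. It changed by -2.15 ± 0.20 (adjusted p = 0.00011) in WT and by -1.66 ± 0.20 (adjusted p = 0.000264) in STAT3-KO.

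Of the other 2 tested AIM2-like genes, Ifi213 was at 1.03 and 1.21 FPKM in WT control and 0.0808 and 0 in WT IL-33. It passed the filter only through WT control and is given without a test. Ifi211 was below 1.33 FPKM throughout and was called in none of the 5 comparisons by limma. Ifi204, a DNA sensor related to human IFI16, and Ifi205 and Ifi214 did not pass the filter, with no value above 0.224 FPKM. The differences of responses of Ifi203, Ifi206, Ifi208 and Ifi209 lay between 0.04 and 0.49 with SEs of 0.20 to 0.43, so that a difference of that size was not detectable here.

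**Figure D3:**
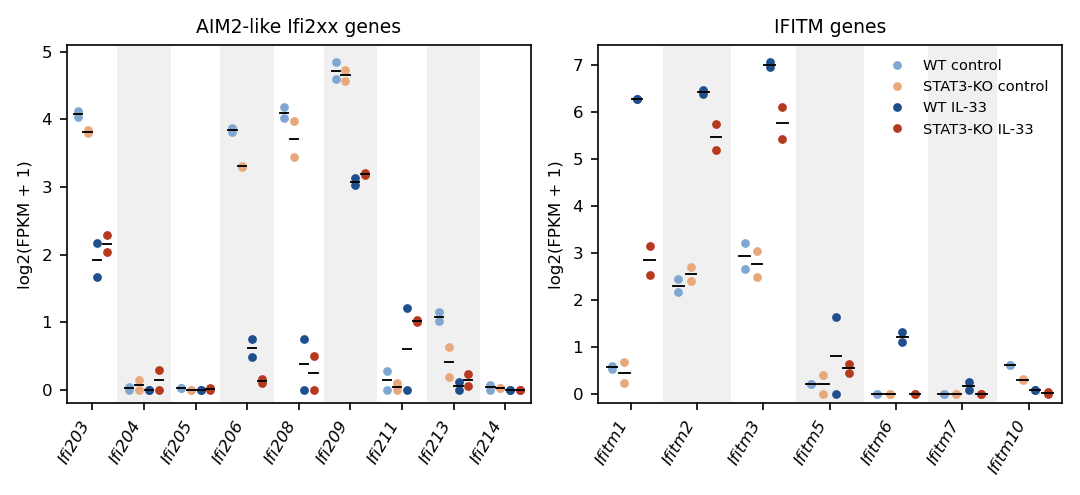
Levels as log2(FPKM + 1) (y axes) by gene (x axes) for the 9 AIM2-like genes (left) and the 7 Ifitm genes (right), with 1 point per library in 4 group colours and bars at group means of 2 libraries. The IL-33 points of Ifi203, Ifi206, Ifi208 and Ifi209 lie below the control points in both genotypes, and those of Ifitm1, Ifitm2 and Ifitm3 lie far above them, highest in WT.

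Ifitm1, Ifitm2 and Ifitm3 rose with IL-33 in both genotypes and were lower in STAT3-KO than in WT with IL-33. IFITM proteins sit in cell and endosome membranes and hinder fusion of enveloped viruses. Summed over the 7 genes, the level was 9.60 to 13.5 FPKM in the 4 control libraries, 292 and 289 in WT IL-33, and 128 and 82.5 in STAT3-KO IL-33. The 3 sets did not overlap. Nearly all of each sum came from Ifitm1, Ifitm2 and Ifitm3.

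Ifitm1 (ENSMUSG00000025491, chromosome 7, 140967221 to 140969825) was at 0.436 and 0.519 FPKM in WT control, 0.598 and 0.171 in STAT3-KO control, 75.7 and 76.2 in WT IL-33 and 7.85 and 4.78 in STAT3-KO IL-33. Control libraries were near the detection limit in both genotypes, and each WT IL-33 library lay far above each STAT3-KO IL-33 library. It rose by 5.70 ± 0.24 in WT and 2.39 ± 0.24 in STAT3-KO, given without a test because Ifitm1 passed the filter only through the IL-33 groups. Its responses differed by -3.32 ± 0.34 (adjusted p = 0.00103). With IL-33 its mean FPKM was 12 times as high in WT as in STAT3-KO.

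Ifitm2 was at 3.46 and 4.43 FPKM in WT control, 5.45 and 4.28 in STAT3-KO control, 82.7 and 86.9 in WT IL-33 and 52.3 and 35.7 in STAT3-KO IL-33. It rose by 4.12 ± 0.20 (adjusted p = 3.99e-06) in WT and 2.92 ± 0.20 (adjusted p = 1.43e-05) in STAT3-KO, with a difference of -1.20 ± 0.28 (adjusted p = 0.0255). The gene model Gm45717 covers 40.9% of its exon bases and is not listed among the genes of the deposited data. Any reads of that model over those bases cannot be told apart from those of Ifitm2. Ifitm3, the most abundant of the family, was at 8.26 and 5.31 FPKM in WT control, 7.19 and 4.6 in STAT3-KO control, 132 and 122 in WT IL-33 and 67.5 and 41.7 in STAT3-KO IL-33. Its rise was 4.07 ± 0.28 (adjusted p = 2.23e-05) in WT and 3.0 ± 0.28 (adjusted p = 6.57e-05) in STAT3-KO. With IL-33 it was lower in STAT3-KO (-1.24 ± 0.28 (adjusted p = 0.00978)), whereas the difference of responses, -1.07 ± 0.39, was not called (adjusted p = 0.0993).

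Ifitm6 was listed at 0 in all libraries other than those of WT IL-33, where it was at 1.5 and 1.15 FPKM. It passed the filter only through that group and is given without a test. Ifitm5, Ifitm7 and Ifitm10 did not pass the filter, and Ifitm5 reached 2.09 FPKM in WT IL-33 2 alone.

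The RNA sensors moved in different directions. Ddx58, which encodes the RNA sensor RIG-I, was at 20.8 and 23.6 FPKM in WT control, 22.5 and 19.4 in STAT3-KO control, 15.4 and 14.8 in WT IL-33 and 4.32 and 6.57 in STAT3-KO IL-33. It was lowest in STAT3-KO IL-33, below all WT IL-33 and control values. It fell in STAT3-KO (-1.79 ± 0.18 (adjusted p = 0.000117)), its change in WT was -0.53 ± 0.18 (adjusted p = 0.0523), and the difference was -1.26 ± 0.26 (adjusted p = 0.0154).

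Ifih1, which encodes the related sensor MDA5, was at 3.3 and 2.32 FPKM in WT control, 1.58 and 1.13 in STAT3-KO control, 3.3 and 2.57 in WT IL-33 and 3.83 and 5.58 in STAT3-KO IL-33. It rose in STAT3-KO (1.27 ± 0.24 (adjusted p = 0.00287)), with a change of 0.05 ± 0.24 in WT (adjusted p = 0.876) and a difference of 1.21 ± 0.34 (adjusted p = 0.0463). Dhx58, which encodes the regulator LGP2, ranged from 2.16 to 3.81 FPKM and was called in none of the comparisons. Zbp1, a sensor of Z-form nucleic acid that can trigger necroptosis, was at 21 and 24 FPKM in WT control, 19.4 and 18.3 in STAT3-KO control, 10.4 and 13.8 in WT IL-33 and 24.8 and 18.5 in STAT3-KO IL-33. It fell in WT (-0.85 ± 0.18 (adjusted p = 0.00794)), changed by 0.18 ± 0.18 in STAT3-KO (adjusted p = 0.446), and the responses differed by 1.03 ± 0.26 (adjusted p = 0.0325).

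The genes most often used as readouts of type I interferon were barely detected. Isg15, a ubiquitin-like modifier, lay between 0.0824 and 1.14 FPKM, and Rsad2, the antiviral enzyme viperin, between 0.0825 and 0.844. The 5 Ifit genes, whose products bind viral RNA, summed to 1.24 to 3.26 FPKM over the 8 libraries. Ifit3 was listed at 0 in 6 libraries. Ifit1 was at 1.69 FPKM in both STAT3-KO IL-33 libraries and no higher than 0.828 elsewhere, and as it passed the filter only through that group it is given without a test. Ifit2 fell in STAT3-KO, from 1.56 and 1.24 FPKM in STAT3-KO control to 0.0625 and 0.272 in STAT3-KO IL-33 (-1.04 ± 0.25 (adjusted p = 0.0087)).

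The Oas genes encode enzymes whose oligoadenylate product activates RNase L. Of 6 Oas and Oasl genes, 2 passed the filter. Oas3 was at 6.76 and 6.58 FPKM in WT control, 5.78 and 3.9 in STAT3-KO control, 4.65 and 3.62 in WT IL-33 and 1.59 and 2.39 in STAT3-KO IL-33. It was lowest in STAT3-KO IL-33, where it fell with IL-33 (-0.96 ± 0.23 (adjusted p = 0.00817)), and the change in WT was -0.59 ± 0.23 (adjusted p = 0.0743). Oas1c ranged from 1.12 to 2.32 FPKM and was called in none of the comparisons. Usp18, which removes ISG15 and damps type I receptor signalling, was at 9.18 and 8.96 FPKM in WT control, 9.68 and 10.3 in STAT3-KO control, 3.12 and 2.44 in WT IL-33 and 3.06 and 2.56 in STAT3-KO IL-33. It fell in both genotypes, by -1.42 ± 0.17 in WT and -1.53 ± 0.17 in STAT3-KO as log2 changes (adjusted p = 0.00043 and 0.000173), and the difference was -0.11 ± 0.24 (adjusted p = 0.782).

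Ifi27l2a, a small hydrophobic interferon-induced protein, had the largest difference of responses of any member, 3.69 ± 0.49 (adjusted p = 0.00303). It was at 1.93 and 1.91 FPKM in WT control, 3.85 and 2.29 in STAT3-KO control, 0.434 and 1.99 in WT IL-33 and 41.5 and 30.4 in STAT3-KO IL-33. The STAT3-KO IL-33 libraries lay far above the other 6. It rose in STAT3-KO (3.19 ± 0.35 (adjusted p = 0.000161)) and changed by -0.50 ± 0.35 in WT (adjusted p = 0.29). Its relative Ifi27, next to it on chromosome 12, was at 40.3 and 39.1 FPKM in WT control, 46.9 and 36.1 in STAT3-KO control, 33.5 and 35.7 in WT IL-33 and 67.4 and 46 in STAT3-KO IL-33. With IL-33 Ifi27 was higher in STAT3-KO (0.67 ± 0.19 (adjusted p = 0.0258)), and its difference of responses, 0.62 ± 0.27, was not called (adjusted p = 0.147).

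Bst2, the tetherin that holds virions at the cell surface, and Ifi35, a partner of Nmi, were among the most abundant effectors. Ifi35 was at 86.5 and 85.8 FPKM in WT control, 81.2 and 82.1 in STAT3-KO control, 105 and 107 in WT IL-33 and 169.8 and 138 in STAT3-KO IL-33. It rose in STAT3-KO (0.90 ± 0.11 (adjusted p = 0.000353)), changed by 0.30 ± 0.11 in WT (adjusted p = 0.0674), and the responses differed by 0.60 ± 0.16 (adjusted p = 0.04). Bst2 was at 116 and 119.9 FPKM in WT control, 114 and 100.5 in STAT3-KO control, 129.7 and 154 in WT IL-33 and 200.2 and 141 in STAT3-KO IL-33. It rose in STAT3-KO (0.65 ± 0.17 (adjusted p = 0.0117)), and the difference of responses was 0.39 ± 0.23 (adjusted p = 0.293).

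Effectors with lower levels in STAT3-KO IL-33 included Parp14, an ADP-ribosyltransferase, and Isg20, an exonuclease. Parp14 was at 3.98 and 3.4 FPKM in STAT3-KO control, 4.13 and 4.5 in WT IL-33 and 1.25 and 1.55 in STAT3-KO IL-33, and its responses differed by -1.29 ± 0.27 (adjusted p = 0.0174). Isg20 was at 3.08 and 2.74 FPKM in WT IL-33 and 0.626 and 0.181 in STAT3-KO IL-33 (-1.49 ± 0.23 (adjusted p = 0.00165)). Xaf1, which binds an inhibitor of apoptosis, rose in STAT3-KO from 0.71 and 0.93 to 2.59 and 2.04 FPKM, with a difference of responses of 1.44 ± 0.30 (adjusted p = 0.0159). Parp9 (14.3 to 22.3 FPKM) and Isg20l2 (5.04 to 11.4 FPKM) were called in none of the comparisons.

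Tap1 and Tap2, the subunits of the transporter that supplies peptides to MHC class I, fell in WT. Tap1 was at 93.7 and 93.3 FPKM in WT control, 78.5 and 78.7 in STAT3-KO control, 57.5 and 61.8 in WT IL-33 and 95.9 and 104 in STAT3-KO IL-33. Tap1 fell in WT (-0.64 ± 0.10 (adjusted p = 0.00143)) and rose in STAT3-KO (0.34 ± 0.10 (adjusted p = 0.0168)), with a difference of 0.99 ± 0.14 (adjusted p = 0.00341). WT IL-33 lay below all other Tap1 libraries. Tap2 was at 115 and 112 FPKM in WT control, 92.2 and 97.5 in STAT3-KO control, 77.6 and 85.8 in WT IL-33 and 93.4 and 104 in STAT3-KO IL-33. It fell in WT (-0.47 ± 0.10 (adjusted p = 0.00794)), changed by 0.05 ± 0.10 in STAT3-KO (adjusted p = 0.687), and its responses differed by 0.53 ± 0.14 (adjusted p = 0.0435). Tap1 shares 212 exon bases with Psmb9 on the opposite strand, and the strand setting of the counting is not given in the sources used here.

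**Figure D4:**
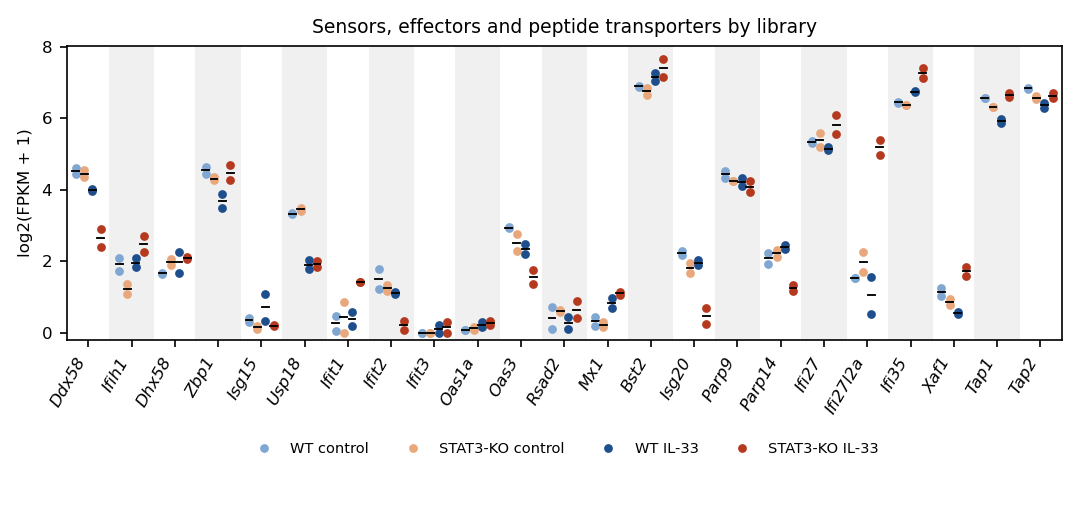
Level as log2(FPKM + 1) (y axis) by gene (x axis) for sensors, effectors and the Tap genes, with 1 point per library in 4 group colours and bars at group means of 2 libraries. Isg15, Ifit1, Ifit3, Oas1a and Rsad2 stay near 0, Ifi27l2a is highest in STAT3-KO IL-33, and Ddx58 and Isg20 are lowest there.

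Some effector calls were lost too when a single library was left out. For IL-33 in WT the call was lost for Tap2 without WT IL-33 1 (-0.40), and for Zbp1 without WT IL-33 1 (-0.66). For IL-33 in STAT3-KO it was lost for Bst2 without STAT3-KO control 2 (0.55), STAT3-KO IL-33 1 (0.40), for Ifit2 without STAT3-KO IL-33 1 (-0.91), for Oas3 without STAT3-KO control 1 (-0.73), STAT3-KO IL-33 1 (-0.77), for Tap1 without STAT3-KO control 1 (0.34), STAT3-KO control 2 (0.35), STAT3-KO IL-33 2 (0.28), and for Xaf1 without STAT3-KO control 1 (0.78), STAT3-KO IL-33 1 (0.74). Between genotypes with IL-33 it was lost for Ifi27 without WT IL-33 1 (0.63), WT IL-33 2 (0.71), STAT3-KO IL-33 1 (0.40), for Ifi35 without WT IL-33 1 (0.50), for Ifit2 without WT IL-33 1 (-0.87), WT IL-33 2 (-0.94), STAT3-KO IL-33 1 (-0.77), STAT3-KO IL-33 2 (-1.03), for Ifitm2 without WT IL-33 2 (-0.92), for Ifitm3 without WT IL-33 1 (-1.19), STAT3-KO IL-33 2 (-0.90), for Oas3 without WT IL-33 1 (-0.64), WT IL-33 2 (-0.93), STAT3-KO IL-33 1 (-0.59), and for Zbp1 without WT IL-33 1 (0.60), STAT3-KO IL-33 1 (0.58). The difference of responses was lost for Ddx58 without WT control 1 (-1.17), STAT3-KO control 1 (-1.16), WT IL-33 1 (-1.23), WT IL-33 2 (-1.29), for Ifi35 without WT control 1 (0.59), WT control 2 (0.60), STAT3-KO control 1 (0.59), STAT3-KO control 2 (0.60), WT IL-33 1 (0.58), WT IL-33 2 (0.61), STAT3-KO IL-33 1 (0.45), and for Ifih1 without WT control 1 (1.02), STAT3-KO control 1 (1.35), STAT3-KO control 2 (1.07), WT IL-33 1 (1.35), WT IL-33 2 (1.08), STAT3-KO IL-33 1 (1.43), STAT3-KO IL-33 2 (0.99). It was lost too for Ifitm2 without WT control 1 (-1.06), STAT3-KO control 1 (-1.06), WT IL-33 1 (-1.24), WT IL-33 2 (-1.17), STAT3-KO IL-33 2 (-0.93), for Parp14 without STAT3-KO control 1 (-1.20), WT IL-33 1 (-1.34), WT IL-33 2 (-1.24), STAT3-KO IL-33 1 (-1.19), for Tap2 without WT control 1 (0.51), WT control 2 (0.54), STAT3-KO control 1 (0.49), STAT3-KO control 2 (0.57), WT IL-33 1 (0.45), WT IL-33 2 (0.60), STAT3-KO IL-33 2 (0.45), for Xaf1 without STAT3-KO control 1 (1.35), WT IL-33 1 (1.46), WT IL-33 2 (1.41), STAT3-KO IL-33 1 (1.32), and for Zbp1 without WT control 1 (1.12), WT control 2 (0.93), STAT3-KO control 1 (1.07), STAT3-KO control 2 (0.99), WT IL-33 1 (0.83), STAT3-KO IL-33 1 (0.82). The differences of responses of Ifitm1, Ifi27l2a and Tap1 were called without any single library.

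Before IL-33, few members were called between genotypes, though a larger share than of all genes. The median change of 14 GTPases was -0.47 (STAT3-KO against WT), beside 0.02 over all genes. In control cells limma called 2 of 45 tested members, against 0.463% of all genes (0.253% higher and 0.21% lower). Both were GTPases lower in STAT3-KO, namely Igtp (-0.85 ± 0.12 (adjusted p = 0.0299)) and Ifi47 (-0.76 ± 0.09 (adjusted p = 0.0146)), with the values by library given above and no overlap. At an unadjusted p under 0.05, 7 of 15 tested GTPases were lower and 1 higher in STAT3-KO. Of 6 AIM2-like genes 2 were lower and 0 higher, and of 24 effectors 3 were lower and 0 higher. Over all genes 4.27% were lower and 5.04% higher. These counts include the 4 members that reached 1 FPKM in a single group. Of these, Ifi213 passed the filter only through WT control, so it could only come out lower. Gbp2 differed by -0.77 ± 0.13 and Irgm2 by -0.97 ± 0.17, which did not pass (adjusted p = 0.0681 and 0.0684), and their control groups did not overlap. Iigp1 pointed the other way (1.21 ± 0.30, adjusted p = 0.178). The call was lost for Igtp without WT control 1 (-0.70), STAT3-KO control 1 (-0.75), STAT3-KO control 2 (-0.95), WT IL-33 1 (-0.85), WT IL-33 2 (-0.85), STAT3-KO IL-33 1 (-0.85), STAT3-KO IL-33 2 (-0.85), and for Ifi47 without WT control 1 (-0.80), WT control 2 (-0.73), STAT3-KO control 1 (-0.69), STAT3-KO control 2 (-0.84). With only the 4 control libraries in the fit, 0 members were called. The NK cell and ILC1 marker sum was 26.7 to 29.3 FPKM in STAT3-KO control and 8.78 to 10.5 in WT control, with Tbx21 at 19.7 and 21 against 4.12 and 3.04 and Ncr1 at 0 in all 4 libraries, and its part in these differences was not tested.

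Other genes of the pathway were read from fixed lists. Of 10 interferon genes 3 were in the table and 0 passed the filter, and Ifng, the interferon of type 1 lymphocytes, was at no more than 0.433 FPKM in any library. Of 6 receptor genes 5 were tested, and 5 fell in WT and 4 in STAT3-KO, against 21.6% and 30.6% of all genes. The 5 in WT became 3 without WT control 1 and 1 without WT IL-33 2. Ifngr1, the ligand-binding chain of the interferon gamma receptor, was at 465 and 462 FPKM in WT control, 498 and 491 in STAT3-KO control, 196 and 191 in WT IL-33 and 71.7 and 82.7 in STAT3-KO IL-33. The control libraries of both genotypes lay together and STAT3-KO IL-33 lay lowest. Its change was -1.25 ± 0.09 (adjusted p = 3.57e-05) in WT and -2.67 ± 0.09 (adjusted p = 6.22e-07) in STAT3-KO, with a difference of -1.41 ± 0.13 (adjusted p = 0.000737). Ifnar1, a chain of the type I receptor, changed by -0.72 ± 0.17 (adjusted p = 0.0105) in WT and -1.37 ± 0.17 (adjusted p = 0.000278) in STAT3-KO. The WT call was lost for Ifnar1 without WT control 2 (-0.61), WT IL-33 2 (-0.56).

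Of 11 signalling kinases and transcription factors, 1 rose and 5 fell in WT, 1 rose and 4 fell in STAT3-KO, and the difference of responses was positive for 3 and negative for 1. Over all genes 36.1% were called in WT and 51.0% in STAT3-KO, so that the list was called no more often than genes at large in STAT3-KO. The difference of responses was called for 15.1% of all genes, 6.72% positive and 8.43% negative. The single rise in WT became 0 without WT control 1, WT IL-33 1 or WT IL-33 2, and the 4 falls in STAT3-KO became 2 without STAT3-KO control 1 or STAT3-KO control 2. Irf9, a DNA-binding subunit of the complex that binds the ISRE, was at 40.2 and 38.9 FPKM in WT control, 22.7 and 23.5 in STAT3-KO control, 12.2 and 14 in WT IL-33 and 19.6 and 18.8 in STAT3-KO IL-33. It was the only gene of this list called between genotypes in control (-0.75 ± 0.12 (adjusted p = 0.042)), and its responses differed by 1.28 ± 0.17 (adjusted p = 0.00291). The control call was lost for Irf9 without WT control 1 (-0.73), WT control 2 (-0.78), STAT3-KO control 1 (-0.73), STAT3-KO control 2 (-0.78), WT IL-33 1 (-0.75), WT IL-33 2 (-0.75), STAT3-KO IL-33 1 (-0.75), STAT3-KO IL-33 2 (-0.75).

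Irf1, which switches on many GBP genes, was at 84.9 and 93.6 FPKM in WT control, 54.8 and 59.7 in STAT3-KO control, 34.1 and 32.8 in WT IL-33 and 40.6 and 54.7 in STAT3-KO IL-33. Irf1 fell in WT (-1.39 ± 0.15 (adjusted p = 0.000222)), its change in STAT3-KO was -0.27 ± 0.15 (adjusted p = 0.149), and the responses differed by 1.12 ± 0.21 (adjusted p = 0.0106). Stat2, a transcription factor of type I interferon responses, was at 9.94 and 13.9 FPKM in WT control, 9.05 and 9.86 in STAT3-KO control, 6.6 and 5.34 in WT IL-33 and 2.61 and 2.9 in STAT3-KO IL-33. Stat2 fell in WT (-0.88 ± 0.19 (adjusted p = 0.00858)) and in STAT3-KO (-1.48 ± 0.19 (adjusted p = 0.000419)), and the difference, -0.60 ± 0.27, was not called (adjusted p = 0.167). The WT call was lost for Stat2 without WT IL-33 2 (-0.75). Irf3 and Irf7, which switch on interferon genes, changed by -0.77 ± 0.12 and -0.60 ± 0.21 in WT and by -0.32 ± 0.12 and -0.79 ± 0.21 in STAT3-KO. The call of Irf7 in WT (adjusted p = 0.0555) did not pass, and that of Irf3 in STAT3-KO (adjusted p = 0.0493) was lost without any one of the 8 libraries, with values of -0.38 to -0.26. The call of Irf7 in STAT3-KO was lost for Irf7 without STAT3-KO control 1 (-0.78), STAT3-KO control 2 (-0.80), STAT3-KO IL-33 2 (-0.65). Irf7 reached 1 FPKM in the control groups only, so it passed the filter only through the side where it is high.

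Jak1, the kinase shared by both interferon receptors, was at 90.3 and 122 FPKM in WT control, 113 and 119.5 in STAT3-KO control, 109 and 109 in WT IL-33 and 30.6 and 36.2 in STAT3-KO IL-33. It fell in STAT3-KO (-1.77 ± 0.15 (adjusted p = 4.2e-05)), its change in WT was 0.05 ± 0.15 (adjusted p = 0.809), and the difference from the WT response was -1.82 ± 0.21 (adjusted p = 0.00172). Irf5 rose in STAT3-KO (0.67 ± 0.14 (adjusted p = 0.00455)) from 14 and 15 to 24.9 and 22.3 FPKM, and its responses differed by 1.28 ± 0.20 (adjusted p = 0.00516). Among 7 inhibitors, Socs3, the feedback inhibitor of STAT3-using receptors, was at 5.92 and 5.83 FPKM in WT control, 2.57 and 3.34 in STAT3-KO control, 167 and 191 in WT IL-33 and 14.9 and 16.4 in STAT3-KO IL-33, with a difference of responses of -2.63 ± 0.21 (adjusted p = 0.000347). Socs1, the main inhibitor of interferon receptors, ranged from 492 to 724 FPKM and was called in none of the comparisons.

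Of 27 tested genes on the list of other interferon-stimulated genes, 2 rose and 17 fell in WT, and 3 rose and 18 fell in STAT3-KO, with medians of -0.55 and -0.65, beside 14.5% of all genes higher and 21.6% lower in WT and 20.4% and 30.6% in STAT3-KO. The 18 falls in STAT3-KO became 11 without STAT3-KO control 1 or STAT3-KO control 2 and 10 without STAT3-KO IL-33 1. After rescaling, 4 rose and 12 fell in STAT3-KO. The difference of responses was positive for 7 and negative for 1, beside 6.72% of all genes positive and 8.43% negative. Gm12250, a further immunity-related GTPase gene, was at 68.1 and 82.5 FPKM in WT control, 35.6 and 43.2 in STAT3-KO control, 24.7 and 36.7 in WT IL-33 and 96.3 and 115 in STAT3-KO IL-33, a pattern with WT IL-33 lowest and STAT3-KO IL-33 highest. Its responses differed by 2.69 ± 0.28 (adjusted p = 0.00113). Cxcl10, a chemokine of interferon-exposed tissue, was at 0.977 and 0.609 FPKM in STAT3-KO control and 12.2 and 7.22 in STAT3-KO IL-33. It was below 0.38 in all WT libraries and passed the filter only through STAT3-KO IL-33. Its higher level there is therefore given without a test, and the counts of this list include it. Tgtp2, a GTPase gene in the same family as Igtp, was at 146 and 132 FPKM in WT control, 60.8 and 63.5 in STAT3-KO control, 34.8 and 38.9 in WT IL-33 and 40.6 and 53.4 in STAT3-KO IL-33. Tgtp2 fell in WT (-1.89 ± 0.14 (adjusted p = 3.76e-05)), and its responses differed by 1.48 ± 0.20 (adjusted p = 0.00323).

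Samhd1, which degrades the nucleotides needed for reverse transcription, fell in both genotypes, by -2.42 ± 0.12 in WT and -1.19 ± 0.12 in STAT3-KO as log2 changes. It was at 45.7 and 48.3 FPKM in WT control, 44.7 and 43.6 in STAT3-KO control, 7.99 and 7.9 in WT IL-33 and 17.2 and 20.3 in STAT3-KO IL-33, and the difference was 1.23 ± 0.17 (adjusted p = 0.00365). Ly6a, the surface antigen Sca-1, rose in WT (2.05 ± 0.14 (adjusted p = 2.15e-05)) and its responses differed by -2.14 ± 0.19 (adjusted p = 0.000676), with 1089 and 878 FPKM in WT IL-33 and 117 and 109.8 in STAT3-KO IL-33.

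Of 8 MHC class I and peptide loading genes, 1 rose and 3 fell in WT, and 2 rose and 3 fell in STAT3-KO (4 and 2 after rescaling), shares near the 36.1% and 51.0% of all genes called. The fall of H2-D1 in WT, -0.34 ± 0.10, was not called after rescaling (-0.16), nor without the trend or the filter or with a length trend removed, and was lost for H2-D1 without WT control 1 (-0.30), WT control 2 (-0.37), WT IL-33 1 (-0.25). H2-K1, a classical class I heavy chain, was at 2975 and 2676 FPKM in WT control, 2820.1 and 2807 in STAT3-KO control, 1594 and 1614 in WT IL-33 and 2313 and 2222 in STAT3-KO IL-33. It fell in WT (-0.81 ± 0.08 (adjusted p = 0.000183)), and its responses differed by 0.50 ± 0.12 (adjusted p = 0.0237). That difference was lost for H2-K1 without WT control 1 (0.43), STAT3-KO control 1 (0.51), STAT3-KO control 2 (0.50), WT IL-33 1 (0.49), WT IL-33 2 (0.51). H2-T23 rose in STAT3-KO (0.77 ± 0.10 (adjusted p = 0.000419)) with a difference of 0.89 ± 0.14 (adjusted p = 0.006). Of 8 tested nucleic acid sensors and adaptors, 2 rose (Trim25 and Aim2) and 2 fell (Mavs and Pycard) in WT, at a background of 36.1%. These 4 calls became 1 without WT control 1, WT IL-33 1 or WT IL-33 2, and 2 with no filter. In STAT3-KO limma called 0 of the 8, with 1 at an unadjusted p under 0.05.

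**Figure D5:**
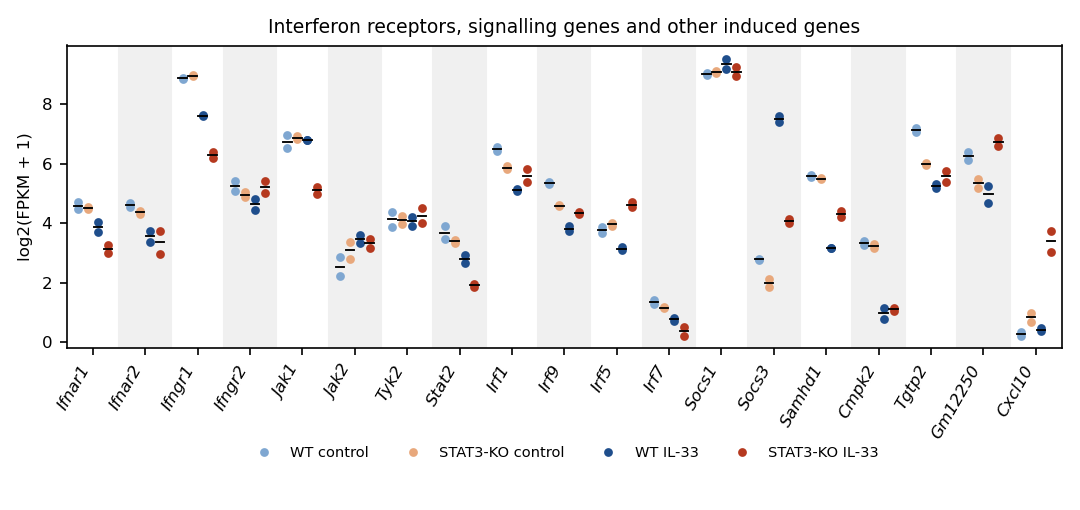
Level as log2(FPKM + 1) (y axis) by gene (x axis) for interferon receptors, signalling genes, inhibitors and other induced genes, with 1 point per library in 4 group colours and bars at group means of 2 libraries. Ifngr1 is lowest in STAT3-KO IL-33, Irf9 is lowest in WT IL-33, and Socs3 is far higher in WT IL-33 than in the other 3 groups.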

How the data were processed

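Per the submitters' processing notes, the authors used Bowtie2, RSEM and the genome GRCm38, and the deposited values are FPKM, 1 per gene and library. Versions, annotation, filters and strand setting are not given in the sources used here. Members were matched by symbol and given GENCODE M21 coordinates. They and all lists were chosen with earlier results of these data known. Depth was recovered from the steps of FPKM times exon length (93.4% to 94.6% of values of up to 100 reads lay within 0.02 of a whole number).

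Tests were two-sided, on log2(FPKM + 1), over 11877 genes with at least 1 FPKM in at least 2 libraries, in limma (version 3.58.1, R 4.3.3) with a trended prior. All 8 libraries entered 1 fit for the 5 comparisons, with 4 residual degrees of freedom and 4.46 prior ones (median). P-values were adjusted by Benjamini-Hochberg over all tested genes, and the procedure was tested on simulated data. Members called in any comparison and with a group mean of at least 5 FPKM (30) were given by library, within 10 per class and comparison for statistics, and others by range. From each pathway list up to 4 called genes of smallest p per comparison were considered, of which the text names a part. A further gene of the signalling list was left out of all list counts and is not reported here. Python 3.11.15 (pandas 2.3.3, numpy 2.4.6) made the tables, and matplotlib 3.10.9 the figures. Alternatives were pseudocounts of 0.1 and 0.5, no filter and a filter at 5 FPKM, median-of-ratios rescaling, removal of a length trend, a replicate block, no trend, only the groups compared in the fit, and each library left out.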

Additional observations from a re-analysis of the deposited data

Results flagged for a closer look

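The IL-33 response differed between genotypes, by the interaction term of limma, for 22 members. Among the GTPases the difference (STAT3-KO minus WT, log2(FPKM + 1)) was 3.29 for Gbp10, 3.08 for Gbp2, 2.96 for Iigp1, 2.43 for Igtp, 1.87 for Gbp8, 1.58 for Gbp6, 1.53 for Irgm2, 1.43 for Ifi47, 1.02 for Gbp4 and 0.75 for Gbp7. Among the effectors it was positive at 3.69 for Ifi27l2a, 1.44 for Xaf1, 1.21 for Ifih1, 1.03 for Zbp1, 0.99 for Tap1, 0.60 for Ifi35 and 0.53 for Tap2. It was negative at -3.32 for Ifitm1, -1.29 for Parp14, -1.26 for Ddx58 and -1.20 for Ifitm2. Ifitm6 had -1.21, but it passed the filter only through WT IL-33, so it could only come out negative. It is counted among the 22, and its value is given without a test. Over all genes the interaction term was called for 15.1%.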

How the results depend on the processing

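Of the alternative values of called changes of members, 1638 stayed called and 192 missed the threshold, with 0 changes of direction. All member counts in this section include Ifi213, Mx1, Ifit1 and Ifitm6 where they were called, although these had to differ to be tested. They also include Ifi206, Ifi208 and Ifitm1, which for IL-33 against control could be called in a single direction only. Of the called members, 22 of 26 for IL-33 in WT, 20 of 33 for IL-33 in STAT3-KO, 0 of 2 between genotypes in control, 15 of 28 between genotypes with IL-33 and 11 of 22 for the difference of responses stayed called under all alternatives. The 2 members lower in STAT3-KO control became 1 with no filter, 4 with a filter at 5 FPKM, 0 without the trend and 0 with only the groups compared. At the filter of 5 FPKM the 9 members lower in STAT3-KO with IL-33 became 5 and the 5 negative differences of responses became 3. Leaving out 1 library gave 4 to 6 rises and 17 to 22 falls in WT, and 12 to 19 rises and 10 to 15 falls in STAT3-KO. Between genotypes it gave 0 rises and 0 to 2 falls in control, and 12 to 19 higher and 5 to 9 lower with IL-33, the lowest of these, 12 and 5, both without WT IL-33 1 and without WT IL-33 2. For the difference of responses it gave 10 to 15 positive and 1 to 5 negative values, with 10 without WT IL-33 1, 11 without WT IL-33 2 or STAT3-KO control 1, and 1 negative value without any one of these 3, 2 without WT control 1 and 3 without STAT3-KO IL-33 2. Rescaling ended the calls of Gbp4 (-0.33) and Tap2 (-0.30) in WT and of Gbp9 (-0.57), Ifi47 (-0.12) and Irgm1 (-0.23) in STAT3-KO. Over all tested genes, same-numbered deviations showed correlations of only -0.062 to 0.045 between groups. Such values cannot settle whether same-numbered libraries share a mouse or culture. A replicate block left 5 rises and 21 falls in WT, 18 and 15 in STAT3-KO, 1 fall in control, 19 higher and 9 lower with IL-33, and 16 positive and 6 negative differences. The causes of these changes were not tested. With 2 libraries a group, the spread between libraries limits what could be called, and depth limits members listed at 0.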

Other observations

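Matching symbols of 5 further genes that are not protein coding in the annotation were left out of the counts. Gbp11, a polymorphic pseudogene of the GBP cluster on chromosome 5, was at 2.59 and 2.25 FPKM in WT control, 1.75 and 1.88 in STAT3-KO control, 4.63 and 2.85 in WT IL-33 and 12.9 and 11.5 in STAT3-KO IL-33, highest in STAT3-KO IL-33. Oas1b was at 2.27 and 1.01 FPKM in WT control, 2.12 and 4.0 in STAT3-KO control, 0.958 and 1.05 in WT IL-33 and 0.339 and 0.254 in STAT3-KO IL-33, lowest in STAT3-KO IL-33. Ifi30, the lysosomal thiol reductase that is listed here as a processed transcript, was at 16.9 and 17 FPKM in WT control, 21.2 and 16.5 in STAT3-KO control, 10.3 and 7.58 in WT IL-33 and 11.8 and 11.2 in STAT3-KO IL-33. Mx2 was listed at 0 in 7 libraries and at 0.125 FPKM in STAT3-KO IL-33 2, and Ifi203-ps reached no more than 0.0465 FPKM.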
